A study of Mus musculus with 14 samples.

Results

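The bone morphogenetic protein (BMP) genes were examined in granule neuron progenitors (GNPs), the precursors of cerebellar granule neurons, which divide in the external granule layer. The 10 genes were chosen by name: the ligands Bmp2, Bmp4, Bmp5, Bmp6 and Bmp7, the receptors Bmpr1a, Bmpr1b and Bmpr2, and the response genes Id1 and Id3. All 10 of them were among the 41381 genes of the table, and all 10 passed the filter on low values, which 17325 genes passed. Only Bmp5 was called different in GNPs labelled homozygous for the Chd7 deletion. Its mean level there was 24.6% of the WT level, and in GNPs labelled heterozygous it was 55.2%. The other 4 ligands, the 3 receptors and both response genes were not called.

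RNA-seq was performed on GNPs freshly isolated at postnatal day 7, with the question of how the loss of Chd7, an ATP-dependent chromatin remodeller, alters gene expression. WT 1 to 3 were labelled Chd7 wild type and WT 4 and 5 Atoh1-Cre negative (n = 5). Het 1 and 2 were labelled het mutant and Het 3 to 5 Atoh1-Cre::Chd7 f/+ (n = 5). Hom 1 and 2 were labelled hom mutant and Hom 3 and 4 Atoh1-Cre::Chd7 f/f (n = 4). The strain was given as C56Bl6/J for WT 1 to 3, Het 1 and 2, and Hom 1 and 2, and as C57BL/6 for the other 7. The Atoh1-Cre driver acts in the granule cell lineage, so other cells carried over by the percoll gradient keep intact Chd7. The pups were not separated by sex, and the sources used here do not say whether a library came from 1 pup or from several. P-values therefore measure the spread between libraries, which may be technical in part. WT 1 to 3, Het 1 to 3, and Hom 1 and 2 formed sequencing batch 1 (8 libraries), and the other 6 formed batch 2.

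BMPs are secreted ligands of the TGF-beta superfamily that act through pairs of type I and type II receptor kinases. The activated type I receptor phosphorylates Smad1, Smad5 and Smad9, which enter the nucleus with Smad4 and switch on targets such as the Id genes, inhibitors of basic helix-loop-helix factors. In the cerebellum, BMPs from the roof plate help to specify Atoh1-positive progenitors, and BMP2 and BMP4 are known to oppose the mitogenic effect of Sonic hedgehog on GNPs. Extracellular antagonists such as noggin, chordin and gremlin bind the ligands and keep them from the receptors.

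Values are TPM, the share of the transcripts of a library that a gene holds. They are scaled for transcript length and so can be compared between genes, but they keep no record of the depth of a library. In every library the GNP markers Barhl1 (237 TPM or more), Pax6 (551 TPM or more), Zic1 (739 TPM or more) and Atoh1 (20.8 TPM or more) were detected, and Gabra6, a gene of mature granule neurons, did not exceed 1.03 TPM. Markers of other cells were present and differed between libraries. The summed TPM of 12 endothelial markers was 26.6 to 51.3 in WT 1 to 3 and Het 3, but 140 to 597 in the other 10 libraries. The summed TPM of 12 astroglial markers was 511 to 2032 in WT, 693 to 1291 in Het and 425 to 826 in Hom. WT 1 also had a summed TPM of 588 for 8 choroid plexus markers, against at most 248 elsewhere. Chd7 itself went against the labels in batch 1, where it was at 172 to 185 TPM in Hom and 121 to 152 TPM in WT. In batch 2 it was at 126 and 150 TPM in Hom and at 203 and 272 TPM in WT. A gene-level TPM also counts reads from outside a deleted segment, so it does not check the deletion, and genotypes below are those of the labels. The paper itself reports lower Chd7 transcripts by qRT-PCR in Het and Hom GNPs, and loss of the protein in Hom granule cells by antibody staining. It also reports Chd7 protein left in the posterior lobe, which it ascribes, as probable, to a lower recombination efficiency of the Atoh1-Cre line. The paper does not say whether the samples of these assays were the sequenced ones.

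In WT GNPs the receptor Bmpr1a was the most abundant of the 10 genes, at 69.0 ± 4.01 TPM (mean ± SD, n = 5). Id1 (32.2 ± 5.63), Bmpr2 (31.1 ± 3.63) and Id3 (26.3 ± 7.58) followed, and their ranges overlapped. The next group was formed by Bmp5 (9.01 ± 1.91), Bmpr1b (7.75 ± 0.861), Bmp4 (7.30 ± 1.81), Bmp7 (4.65 ± 1.26) and Bmp6 (4.54 ± 1.25), each overlapping the next. Bmp2 was the lowest at 0.914 ± 0.391 TPM, and its highest WT library (1.37 TPM) lay below the lowest of Bmp6 (2.95 TPM). The ranges of neighbours were thus separate at 3 places in this order, between Bmpr1a and Id1, between Id3 and Bmp5, and between Bmp6 and Bmp2. The plot of the 10 genes by library shows the levels in all 3 genotypes.

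**Figure D1:**
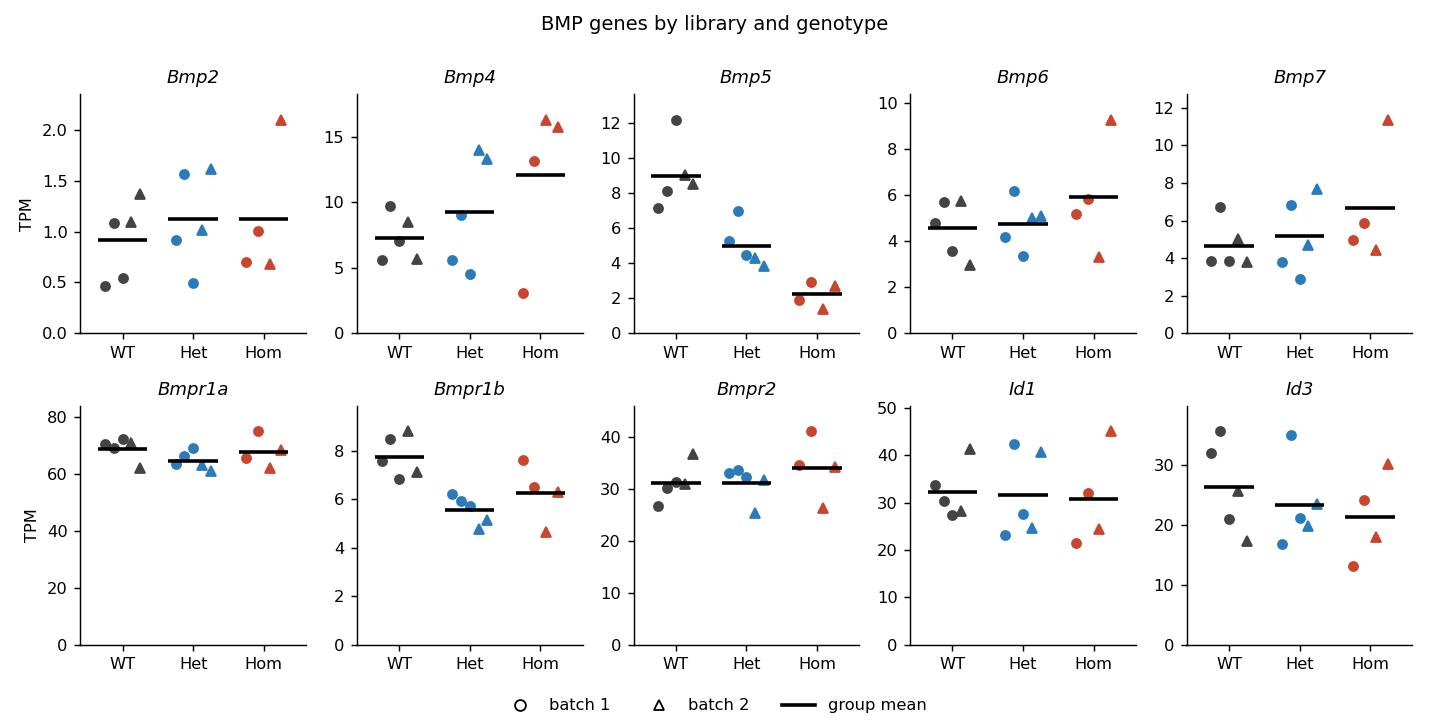
TPM of each of the 10 BMP genes (y axis, from 0) in the WT, Het and Hom libraries (x axis), with circles for batch 1, triangles for batch 2 and a bar for the group mean. The 5 WT libraries of Bmp5 lie at 7.14 to 12.2 TPM, above all Het and Hom libraries, whereas the genotypes overlap for the other 9 genes except for Bmpr1b between WT and Het.

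Among the ligands, Bmp5 stood out. The paper already names Bmp5 among genes activated by Chd7 whose ATAC-seq peaks, a measure of open chromatin, decreased when Chd7 was lost. Bmp5 encodes a secreted BMP of the same subgroup as BMP6 and BMP7, and its gene lies on chromosome 9 at 75775364 to 75900310 (plus strand, GRCm38). It was at 7.14, 8.11, 12.2, 9.06 and 8.54 TPM in WT 1 to 5. It was at 5.26, 6.96, 4.48, 4.30 and 3.84 TPM in Het 1 to 5. It was at 1.88, 2.92, 1.4 and 2.68 TPM in Hom 1 to 4. Every Hom library was below every Het library, and every Het library was below every WT library. On the log2(TPM + 1) scale, which understates changes of low genes, Bmp5 fell by 1.63 in Hom against WT (SE 0.19, 95% confidence interval -2.03 to -1.22, limma adjusted p = 3.38e-04). Bmp5 was thus the 1 of 10 BMP genes called lower, where 1.41% of all tested genes were called lower, and 0 of 10 were called higher, where 1.27% of all tested genes were. At an unadjusted p under 0.05 in Hom the counts were also 1 lower and 0 higher of 10, beside 6.42% and 8.51% of all tested genes.

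In Het against WT the log2 difference of Bmp5 was -0.75 (SE 0.18, 95% confidence interval -1.13 to -0.37), which did not pass the threshold (limma adjusted p = 0.312). No BMP gene was called in Het, in either direction. Over all tested genes the share called was 0.00% lower and 0.00577% higher in that comparison. At an unadjusted p under 0.05, 2 of 10 were lower in Het, Bmp5 and Bmpr1b, against 2.88% of all tested genes, and 0 of 10 were higher, against 3.20%. Between Hom and Het, Bmp5 differed by -0.88 (SE 0.19, limma adjusted p = 0.0700). None of the 10 was called between Hom and Het, where 0.277% of all tested genes were called lower and 0.150% higher. The 3 comparisons share libraries, and their values are given side by side.

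The within-batch values of Bmp5 were alike. Its log2 difference in Hom against WT was -1.56 in batch 1 and -1.72 in batch 2, and the difference between them was -0.16 (SE 0.39, limma adjusted p = 0.866). None of the 10 genes passed the test of a Hom effect that differs between the batches, which 0.0115% of all tested genes passed. Counting libraries within batches, Bmp5 was the 1 of 10 genes with every Hom library below every WT library, a pattern shown by 3.56% of all tested genes. In Het, Bmp5 and Bmpr1b (2 of 10) had every library below every WT library of its batch, against 1.09% of all tested genes. Bmp5 was also the 1 of 10 with every Hom library below every Het library of its batch, against 2.23%. For Hom against WT, the fit of all 14 libraries gave Bmp5 limma adjusted p-values of 0.0174 within batch 1 and 0.0175 within batch 2. When each batch was fitted alone, they were 0.0507 in batch 1 and 0.114 in batch 2, so Bmp5 was called in neither fit.

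**Figure D2:**
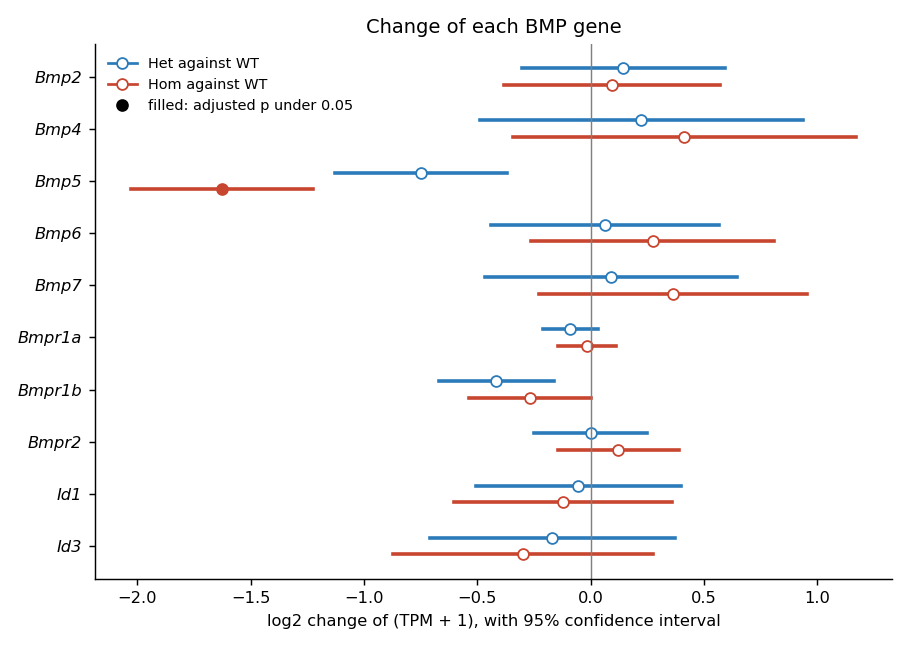
Log2 change of (TPM + 1) against WT (x axis) with its 95% confidence interval for each of the 10 BMP genes, in Het (blue) and Hom (red). A filled point marks an adjusted p under 0.05, which Bmp5 alone reached, at -1.63 in Hom.

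In a bulk sample, fewer cells that express a gene and less RNA per cell cannot be told apart. The levels of other cell types are therefore given beside Bmp5. Of the 12 astroglial markers, 6 were lower in Hom at an unadjusted p under 0.05 and 0 were called, with a median log2 difference of -0.78. Of the 12 endothelial markers, 8 were higher at an unadjusted p under 0.05 and 0 were called, with a median of 1.497. No astroglial marker was at 0 in any library, and Ly6c1 was the endothelial marker at 0 in 1 library.

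Other marker lists moved as well. Of the 9 tested granule neuron markers, 4 were called lower in Hom (Neurod1, Slc17a7, Tubb3 and Reln) and Grin2c was called higher, with a median of -0.38. The sum of all 10 was 2577 to 3507 TPM in WT, 2799 to 3035 TPM in Het and 2283 to 2927 TPM in Hom, and Gabra6 was at 0 in 1 library. All 7 Purkinje markers lay below 0 in Hom with a median of -0.94, and Pcp4 was called lower. Their sum was 148 to 198 TPM in WT 1 to 3, 42.9 and 55.6 TPM in WT 5 and WT 4, 40.1 to 92.4 TPM in Het and 33.2 to 49.6 TPM in Hom, and Pcp2 was at 0 in 1 library. All 5 tested red blood cell markers lay below 0 (median -0.80), 4 of them at an unadjusted p under 0.05 and 0 called, with sums of 296 to 715 TPM in WT, 141 to 364 TPM in Het and 188 to 351 TPM in Hom. Of the 6 tested choroid plexus markers, Clic6 and Otx2 were called higher, with a median of -0.17 and sums of 77.1 to 588 TPM in WT, 72.9 to 248 TPM in Het and 133 to 185 TPM in Hom. Of the 7 interneuron markers Lhx1 was called lower, but it was the only 1 below 0, and the median was 0.22. Of the 11 granule progenitor markers Ccnd1 was called higher, 3 lay below 0 and the median was 0.15. No mural, meningeal, oligodendroglial or microglial marker was called. The part of these lists in the level of Bmp5 was not tested. A model decided after the data were seen added the mean levels of the astroglial and endothelial lists alone. The medians of both lists differed between Hom and WT, so the model cannot separate their part from that of genotype. In it Bmp5 fell by 1.81 in Hom against WT (limma adjusted p = 9.44e-04). In that model the Hom against Het difference of Bmp5 was -0.92 with an adjusted p of 0.0355.

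The ligand composition shifted with Bmp5. Bmp5 held 25.9% to 44.8% of the summed TPM of the 5 ligands in WT, 12.2% to 28.6% in Het and 5.36% to 11.9% in Hom. The Hom range was separate from both others, while WT and Het overlapped. Bmp5 was the most abundant ligand in all WT libraries but WT 2, and Bmp4 was in all Het libraries and in Hom 2 to 4. The summed ligand TPM itself was 21.8 to 31.3 in WT, 15.7 to 31.5 in Het and 15.8 to 41.2 in Hom, and these ranges overlapped. The share of Bmp4 was 25.4% to 31.0% in WT, 28.3% to 48.3% in Het and 19.5% to 62.4% in Hom, so in Hom it varied widely among libraries.

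**Figure D3:**
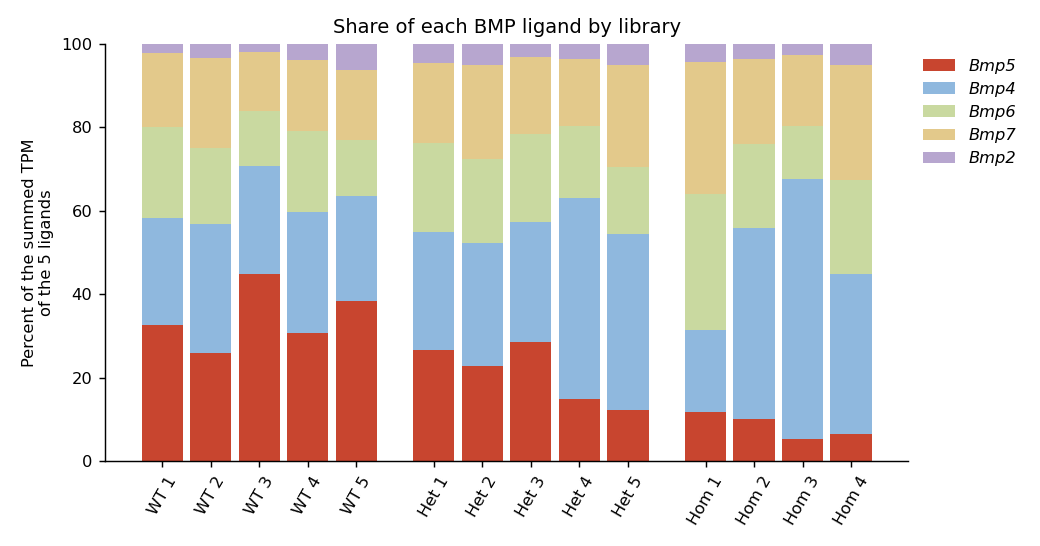
Percent of the summed TPM of the 5 BMP ligands (y axis) taken by each ligand in each library (x axis). The Bmp5 part is 25.9% to 44.8% in WT and 5.36% to 11.9% in Hom, and Bmp4 takes the largest part in all Het libraries and in Hom 2 to 4.

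The promoters of the BMP genes differed in base composition. RefSeq promoter sequences (GRCm38.p6, 250 bases before to 50 after the start site, written 5′ to 3′ on the strand of the gene) were found for 7 of the 10 genes: Bmp4, Bmp5, Bmp6, Bmpr1a, Bmpr1b, Bmpr2 and Id3. Bmp2, Bmp7 and Id1 were not matched. The sequences of Bmp5, of its relative Bmp6 and of Bmpr1a, the most abundant receptor, are shown to compare the gene that was called with 2 that were not. Capitals mark matches to GGCGCC or GCCGNCGC, GC-rich elements known to bind BMP Smads, on either strand.
Bmp5 promoter, chr9:75775115-75775414, plus strand: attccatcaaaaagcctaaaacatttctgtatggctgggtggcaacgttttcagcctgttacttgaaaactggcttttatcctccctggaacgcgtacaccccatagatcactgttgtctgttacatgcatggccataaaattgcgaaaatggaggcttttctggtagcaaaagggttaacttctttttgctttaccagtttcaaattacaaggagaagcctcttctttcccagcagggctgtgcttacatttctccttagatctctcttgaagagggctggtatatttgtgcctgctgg
Bmp6 promoter, chr13:38345466-38345765, plus strand: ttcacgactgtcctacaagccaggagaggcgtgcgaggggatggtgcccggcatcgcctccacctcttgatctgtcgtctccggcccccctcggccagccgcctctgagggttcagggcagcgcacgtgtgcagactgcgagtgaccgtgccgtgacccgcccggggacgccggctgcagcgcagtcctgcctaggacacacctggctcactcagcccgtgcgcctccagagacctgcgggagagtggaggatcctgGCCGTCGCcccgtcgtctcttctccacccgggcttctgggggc
Bmpr1a promoter, chr14:34502497-34502796, minus strand: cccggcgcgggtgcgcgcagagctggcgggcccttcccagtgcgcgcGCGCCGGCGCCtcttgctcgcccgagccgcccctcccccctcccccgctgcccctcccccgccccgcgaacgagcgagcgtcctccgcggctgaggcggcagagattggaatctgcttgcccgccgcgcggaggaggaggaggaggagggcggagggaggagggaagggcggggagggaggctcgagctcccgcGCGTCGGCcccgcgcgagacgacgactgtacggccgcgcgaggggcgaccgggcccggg

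The Bmp5 window was 43.3% G or C with 4 CpG dinucleotides, at or above 18.2% of all promoters by G and C content. The Bmp6 window was 69.3% G or C with 27 CpG, and the Bmpr1a window 79.3% with 48 CpG, at or above 98.8% of all promoters. The median promoter had 52.7% and 7 CpG. GGCGCC occurred in 11.9% of the 32851 promoters of the table and GCCGNCGC in 9.76%. The palindromic Smad element GTCTAGAC occurred in 0.213%. Bmp6 held 1 GCCGNCGC at position 8 from the start site. Bmpr1a held 3 GCCGNCGC, at -203, -201 and -9, of which the first 2 overlapped each other and a GGCGCC at -198. Bmpr2 held 1 GGCGCC at -105. None of the 3 motifs was found in the windows of Bmp4, Bmp5, Bmpr1b (3 start sites) or Id3, and GTCTAGAC was in none of the 7 genes. No match says only that these letters are not in this window.

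Bmp4, a ligand known from dorsal patterning, was variable. It was at 5.56, 9.71, 7.03, 8.52 and 5.67 TPM in WT 1 to 5. It was at 5.59, 9.02, 4.50, 14.01 and 13.3 TPM in Het 1 to 5. It was at 3.09, 13.2, 16.3 and 15.8 TPM in Hom 1 to 4. All 4 mutant libraries of batch 2 were thus above both WT libraries of that batch, whereas in batch 1 the genotypes overlapped and Hom 1 had the lowest level of all. Its log2 difference in Hom against WT was 0.41 (SE 0.35, 95% confidence interval -0.34 to 1.17, limma adjusted p = 0.643), with -0.12 in batch 1 and 1.09 in batch 2. The difference between the batches was 1.21 (SE 0.65, limma adjusted p = 0.363). Without Hom 1 the Hom difference was 0.86 (adjusted p = 0.176), and without Hom 2 it was 0.16.

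Bmp6 and Bmp7, close relatives of Bmp5, did not share its pattern. Bmp6 was at 2.95 to 5.72 TPM in WT, 3.34 to 6.18 TPM in Het and 5.18, 5.80, 3.32 and 9.25 TPM in Hom 1 to 4. Bmp7 was at 3.79 to 6.71 TPM in WT, 2.88 to 7.68 TPM in Het and 4.99, 5.87, 4.43 and 11.4 TPM in Hom 1 to 4. For both, Hom 4 was the highest of all 14 libraries and the other Hom libraries lay within the combined range of WT and Het. The Bmp6 gene overlaps Txndc5 on the other strand. The Hom against WT differences were 0.27 for Bmp6 (SE 0.25, 95% confidence interval -0.26 to 0.81) and 0.36 for Bmp7 (SE 0.27, -0.23 to 0.96), with limma adjusted p-values of 0.669 and 0.595. Without Hom 4 they were 0.05 and 0.13.

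The levels of Bmp6 and Bmp7 followed those of meningeal markers. Meninges, the connective tissue that covers the cerebellar surface next to the external granule layer, are a known source of BMPs. The summed TPM of 12 meningeal markers such as Col1a1, Dcn and Igf2 was 239 to 512 in WT, 338 to 574 in Het and 289 to 640 in Hom, with the maximum in Hom 4 and the minimum in WT 5, and no marker was at 0 in any library. After centring within batch, Bmp6 correlated with the mean log2 level of these markers over the 14 libraries with Pearson's r = 0.934 (permutation within batch, p = 3e-05, adjusted p = 0.0012) and Spearman's rho = 0.912 (adjusted permutation p = 0.0024). The r was 0.806 in batch 1, 0.984 in batch 2, and 0.857 without Hom 4 and WT 5, the libraries farthest from the median. For Bmp7 the r was 0.852 (adjusted permutation p = 0.0048) and the rho 0.859 (adjusted permutation p = 0.0066), with r = 0.926 and 0.843 within the batches and 0.748 without the same 2 libraries. Bmp5 showed r = -0.010 with the meningeal markers (adjusted permutation p = 0.996), and r = 0.484 without the same 2 libraries. These were 3 of 40 relations computed, for 10 genes and 4 marker lists, and the p-values were adjusted over all of them. Genotype was not removed from the levels before correlating. The points share a library and hence its cell mixture, and the part of meningeal cells in the levels of Bmp6 and Bmp7 was not tested.

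**Figure D4:**
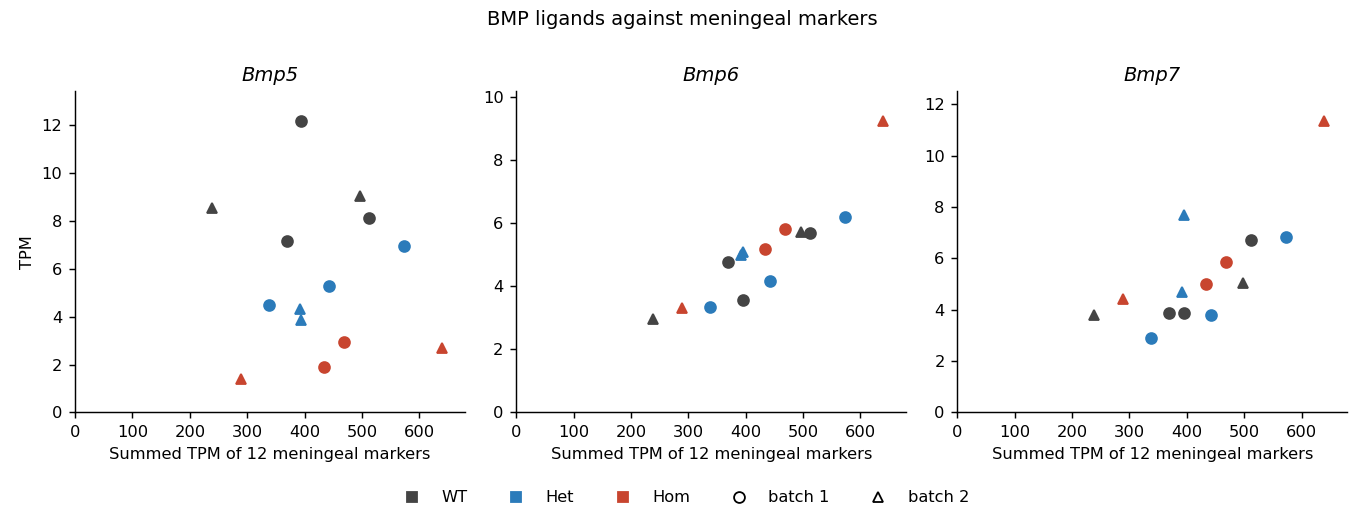
TPM of Bmp5, Bmp6 and Bmp7 (y axes, from 0) against the summed TPM of 12 meningeal markers (x axis, from 0), with 1 point per library, coloured by genotype and shaped by batch. Bmp6 and Bmp7 are highest in Hom 4, the library with the highest marker sum (640), while the Bmp5 values of the 3 genotypes do not overlap.

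Of the other relations, mural markers (pericytes and smooth muscle of vessels) went with Bmp2 (r = 0.754, adjusted permutation p = 0.0173, rho = 0.723, adjusted p = 0.0428), with Bmp6 (r = 0.665, adjusted p = 0.0173, rho = 0.767, adjusted p = 0.0248) and with Bmp7 (r = 0.650, adjusted p = 0.0413, rho = 0.653, adjusted p = 0.0615). Without Het 2 and Hom 2, the libraries farthest from the median, these r were 0.638, 0.676 and 0.597. Within batches 1 and 2 they were 0.895 and 0.552 for Bmp2, 0.714 and 0.879 for Bmp6, and 0.726 and 0.697 for Bmp7. Id3 went with the meningeal markers (r = 0.587, adjusted permutation p = 0.0485, rho = 0.679, adjusted p = 0.0513), with r = 0.467 and 0.972 within the batches and 0.515 without Hom 4 and WT 5. Bmp2 passed with the meningeal markers by rho (0.771, adjusted permutation p = 0.0283) but not by r (0.671, adjusted permutation p = 0.0582). Its r was 0.924 and 0.578 within the batches and 0.816 without Hom 4 and WT 5. For astroglial markers no BMP gene passed. The r of Id3 was 0.650 there (rho = 0.670, adjusted permutation p = 0.0741 and 0.0615), which is above its r with the meningeal markers. Within batches 1 and 2 it was 0.598 and 0.821. The r of Bmp5 with the astroglial markers was 0.538 (rho = 0.530, adjusted permutation p = 0.176 and 0.188). In batch 1 the endothelial levels fell into a low and a high cluster of 4 libraries each, so a relation with that list over all 14 libraries mixes both clusters. Across them Bmp2 passed by r (0.653, adjusted permutation p = 0.0413, rho = 0.675, adjusted p = 0.0601), with r = 0.791 and 0.603 within the batches and 0.498 without Het 2 and Hom 2. Over all 14 libraries Id3 (r = 0.114, adjusted permutation p = 0.881), Bmp6 (r = 0.497, adjusted p = 0.0595) and Bmp7 (r = 0.54, adjusted p = 0.0741) did not pass. Within batches 1 and 2 the r of Id3 was 0.034 and 0.906. The 10 libraries with a summed endothelial TPM of 140 or more were then taken alone, a choice made after the data were seen, with p-values adjusted over 10 relations. Among them Id3 (r = 0.950, adjusted permutation p = 0.0077, rho = 0.915, adjusted p = 0.0203), Bmp7 (r = 0.660, adjusted p = 0.0216, rho = 0.697, adjusted p = 0.0247), Bmp6 (r = 0.553, adjusted p = 0.0387, rho = 0.770, adjusted p = 0.0250) and Bmp2 (r = 0.641, adjusted p = 0.0471, rho = 0.624, adjusted p = 0.104) went with the endothelial markers. Without Hom 1 and Het 2, the libraries farthest from the median, these r were 0.880, 0.803, 0.716 and 0.450. The r of Bmp5 was 0.149 (adjusted permutation p = 0.660, rho = 0.055, adjusted p = 0.887), and -0.405 without Hom 1 and Het 2.

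Bmp2 was the ligand nearest to the limit of the filter. It was at 0.470 to 1.37 TPM in WT, 0.490 to 1.62 TPM in Het and 0.680 to 2.10 TPM in Hom, and the genotypes overlapped. Its Hom against WT difference was 0.09 (SE 0.22, 95% confidence interval -0.38 to 0.57, limma adjusted p = 0.896).

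Among the receptors, the type I receptor Bmpr1b had lower values in Het. It was at 7.56, 8.48, 6.81, 8.80 and 7.11 TPM in WT 1 to 5. It was at 6.22, 5.93, 5.73, 4.77 and 5.15 TPM in Het 1 to 5. It was at 7.61, 6.48, 4.63 and 6.27 TPM in Hom 1 to 4. Every Het library was below every WT library, whereas Hom overlapped both. The log2 difference was -0.42 in Het against WT (SE 0.12, limma adjusted p = 0.518) and -0.27 in Hom against WT (SE 0.13, 95% confidence interval -0.54 to 0.0030, adjusted p = 0.341). Neither passed the threshold. The Hom difference was -0.10 in batch 1 and -0.48 in batch 2.

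Bmpr1a, the other type I receptor, varied little among libraries. It was at 62.1 to 72.3 TPM in WT, 61.3 to 69.1 TPM in Het and 62.1 to 75.2 TPM in Hom. The difference in Hom was -0.01 (95% confidence interval -0.14 to 0.11), the narrowest interval of the 10 genes, with a limma adjusted p of 0.947. In Het it was -0.09 (95% confidence interval -0.21 to 0.03). The type II receptor Bmpr2 was at 26.6 to 36.7 TPM in WT, 25.3 to 33.6 TPM in Het and 26.3 to 41.1 TPM in Hom. Its Hom difference was 0.12 (SE 0.12, limma adjusted p = 0.706), with 0.35 in batch 1 and -0.16 in batch 2. The difference between the batches was -0.51 (SE 0.21, limma adjusted p = 0.243).

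The response genes Id1 and Id3 did not separate by genotype. Id1 was at 27.5 to 41.3 TPM in WT, 23.1 to 42.3 TPM in Het and 21.4, 32.1, 24.5 and 45.1 TPM in Hom 1 to 4. Its Hom difference was -0.12 (SE 0.22, 95% confidence interval -0.60 to 0.36, limma adjusted p = 0.862). Id3 was at 17.3 to 35.7 TPM in WT, 16.8 to 35.02 TPM in Het and 13.1, 24.2, 18.01 and 30.1 TPM in Hom 1 to 4. Its Hom difference was -0.30 (SE 0.27, 95% confidence interval -0.87 to 0.28, limma adjusted p = 0.663), with -0.66 in batch 1 and 0.14 in batch 2. Hom 1 was the lowest and Hom 4 the highest Hom library for both genes. The intervals of both leave room for a fall of up to 0.60 and 0.87 on the log2 scale.

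Over all 10 BMP genes the median log2 difference was 0.04 in Hom and -0.03 in Het, beside 0.02 and 0.01 over all 17325 genes tested. In Hom 5 of the 10 lay below 0. The exact Kruskal-Wallis test over the 3 genotypes, after removal of the batch term, stands in for the test of the study. In it 2 of the 10 genes had p under 0.01 and a lower level in Hom than in WT. These were Bmp5 (exact p = 2.38e-05, the smallest the 252252 arrangements can give) and Bmpr1b (exact p = 0.00941). The p is for any difference among the genotypes. The mean of Bmpr1b was lowest in Het (5.56 TPM, against 6.25 TPM in Hom and 7.75 TPM in WT). Over all genes 2.22% passed in that direction, and 2.42% passed with a higher level in Hom, as 0 of the 10 BMP genes did.

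Other genes of the pathway were taken from lists of ligands, receptors and co-receptors, Smads, secreted antagonists and modulators, intracellular inhibitors, and response genes. Of these, 41 passed the filter: 2 of 12 further ligands, 7 of 8 receptors and co-receptors, 6 of 6 Smads, 13 of 19 secreted antagonists and modulators, 7 of 7 intracellular inhibitors and 6 of 7 response genes. In Hom, 1 of the 41 was called higher and 1 lower, beside 1.27% and 1.41% of all tested genes, so neither count is read as particular to the lists. The median log2 difference was 0.04, beside 0.02 over all tested genes, and in Het 0 were called in either direction. The gene called higher was an antagonist and the one called lower a response gene. By list, the median log2 difference in Hom was -0.43 for the further ligands, 0.05 for the receptors, 0.02 for the Smads, 0.12 for the antagonists, -0.15 for the intracellular inhibitors and 0.05 for the response genes. At an unadjusted p under 0.05 in Het, 2 of the 41 were higher and 1 was lower, near the 3.20% and 2.88% of all tested genes. The higher ones included Smad6, which passed the filter through Het and Hom libraries alone.

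Chrdl2, which encodes chordin-like 2, a secreted BMP antagonist, rose. It was at 4.29, 5.56, 5.31, 7.11 and 7.08 TPM in WT 1 to 5. It was at 11.6, 7.01, 11.02, 15.2 and 14.1 TPM in Het 1 to 5. It was at 15.9, 17.2, 21.7 and 19.3 TPM in Hom 1 to 4. Every Hom library was above every Het library. All Het libraries but Het 2 were above every WT library. The log2 rise in Hom against WT was 1.47 (SE 0.13, 95% confidence interval 1.18 to 1.76, limma adjusted p = 5.30e-05), with 1.54 in batch 1 and 1.405 in batch 2. In Het against WT the difference was 0.88 (SE 0.13, limma adjusted p = 0.0535). When 1 library was left out it was 0.82 to 0.998. The limma adjusted p then ran from 0.00114 (without Het 2) to 0.258 (without Het 3). In mean TPM, Chrdl2 was at 315% of WT in Hom and 201% in Het.

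Msx2, a homeobox gene induced by BMPs, was called lower in Hom at the edge of the threshold. It was at 3.12 to 4.74 TPM in WT, 1.70, 3.35, 3.86, 3.28 and 3.36 TPM in Het 1 to 5, and 1.22, 2.0, 1.18 and 2.71 TPM in Hom 1 to 4. Every Hom library was below every WT library, and Het 1 lay among the Hom libraries. It fell by 0.84 on the log2 scale in Hom (SE 0.21, limma adjusted p = 0.0497). The call was lost in 19 of the 23 alternatives, with adjusted p-values of 0.0305 to 0.310 over all 23 and log2 values of -1.15 to -0.58. Leaving out any single WT library ended it (adjusted p = 0.0746 to 0.113), as did leaving out Hom 1, 2 or 3 (0.152, 0.0713 and 0.124) or Het 2, 3, 4 or 5 (0.0569, 0.0514, 0.0677 and 0.0684).

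The most abundant gene of each list in WT did not pass the test in Hom. Gdf10, a BMP-like ligand that is also on the astroglial list, was at 68.5 ± 28.8 TPM in WT (n = 5) and 36.8 ± 17.4 TPM in Hom (n = 4), with a log2 difference of -0.87 (limma adjusted p = 0.243). Rgmb, a BMP co-receptor, was at 36.6 ± 9.32 and 37.9 ± 1.17 TPM (0.05, adjusted p = 0.903). Smad4, the common partner of the receptor-activated Smads, was at 118 ± 17.3 and 123 ± 13.5 TPM (0.03, adjusted p = 0.868). Fstl1, a secreted follistatin-like glycoprotein, was at 73.5 ± 7.94 and 83.4 ± 11.1 TPM (0.19, adjusted p = 0.433). Tob1, an antiproliferative inhibitor of Smad signalling, was at 85.2 ± 31.8 and 69.0 ± 10.7 TPM (-0.27, adjusted p = 0.540).

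Id2, a further Id gene, was the most abundant response gene. It was at 215, 209, 228, 245 and 363 TPM in WT 1 to 5 and 323, 340, 304 and 288 TPM in Hom 1 to 4. All Hom libraries were above WT 1 to 4 and below WT 5. Its log2 difference in Hom was 0.33 (SE 0.14, limma adjusted p = 0.270). Without WT 5 it was 0.47 with an adjusted p of 0.0239, and in batch 1 alone it was 0.61 with an adjusted p of 0.0178.

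**Figure D5:**
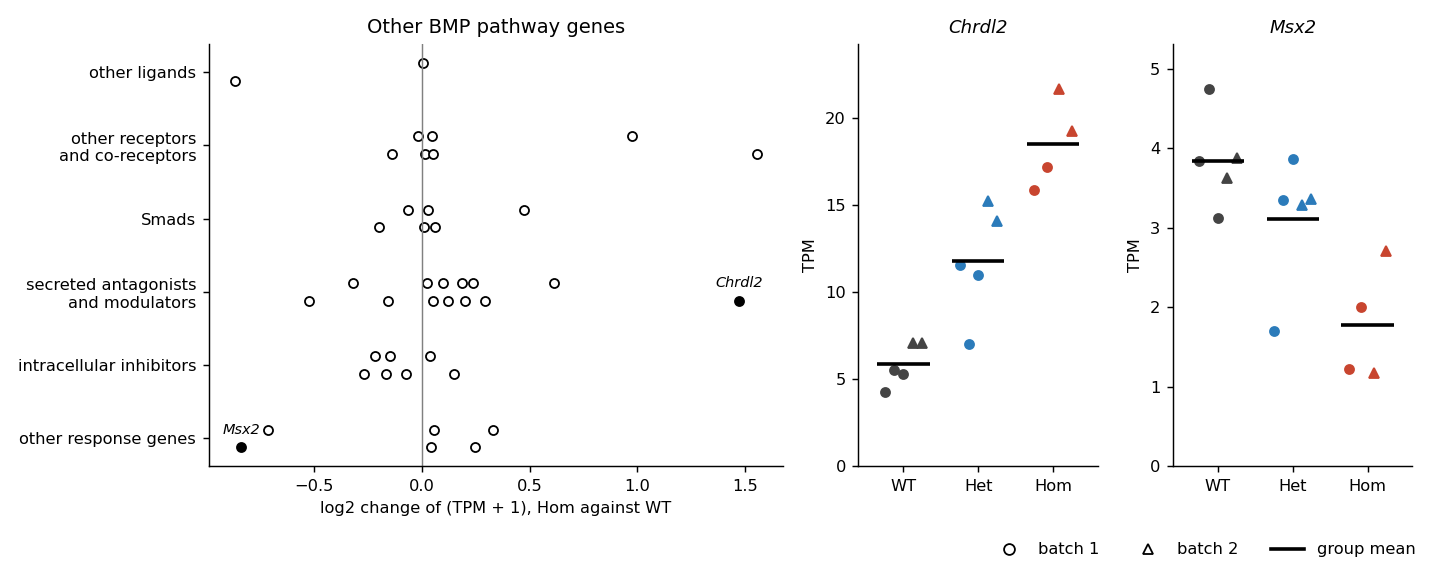
Left, log2 change of (TPM + 1) in Hom against WT (x axis) for the 41 tested genes of 6 BMP pathway lists (rows), with filled points for an adjusted p under 0.05. Right, TPM of Chrdl2 and Msx2 (y axes, from 0) by genotype, with circles for batch 1, triangles for batch 2 and a bar for the group mean, where Chrdl2 runs from 4.29 TPM in WT to 21.7 TPM in Hom.

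The genes most like each BMP gene across the 14 libraries were found by Pearson's r of batch-centred log2(TPM + 1) among genes with a mean TPM of at least 5. For Bmp5 they were Pdgfc (a platelet-derived growth factor, r = 0.970), Grik2 (a kainate receptor subunit, r = 0.969) and Kcnd2 (a potassium channel, r = 0.968). For Bmp6 they were Col6a1 (a collagen chain, r = 0.944), Fkbp9 (0.943) and Apod (0.922), and for Bmp7 Postn (periostin, a matrix protein, r = 0.935), Cryzl2 (0.920) and Anxa2 (0.902). For Bmp4 they were Lims2 (r = 0.961), Fa2h (an enzyme of myelin lipid synthesis, r = 0.935) and Chn2 (0.928), and for Bmp2 Tbx18 (a transcription factor of pericytes, r = 0.922), Nrarp (0.912) and Tgfb1i1 (0.900). The receptors had weaker neighbours in part, with Gm16199 (r = 0.939), Crot (0.771) and Pdk1 (0.763) for Bmpr1a, Tom1l1 (0.811), Fam124a (0.809) and Gm10780 (0.792) for Bmpr1b, and Cnot6l (0.935), Myo5a (0.932) and Mars2 (0.927) for Bmpr2. For Id1 they were Tsc22d3 (r = 0.921), Plk2 (0.889) and Ccn1 (0.867), and for Id3 they included Pea15a (r = 0.929) and Ncan (0.913). These are descriptions over libraries that share genotype and cell mixture.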

How the data were processed

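GNPs were profiled in 14 RNA-seq libraries (WT n = 5, Het n = 5, Hom n = 4). By the methods of the study, Bowtie 1.0.0 and RSEM 1.2.15 mapped single-end total RNA reads to the Ensembl transcriptome of mm10. The authors deposited TPM values, 1 column per library, and the columns headed as controls were matched to the WT libraries by number. TPM keeps no depth, so the depth of each library is unknown and no counting error was computed. All columns have the same total, so a change of abundant genes moves the values of all others. Both tools were run with their defaults, under which RSEM does not use strand, so reads of a stretch shared with a gene on the other strand may go to either, as for Bmp6 with Txndc5 (54.7 TPM at the median) and Bmp5 with Gm26903 (0.465 TPM).

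The log2(TPM + 1) values of the 17325 genes that reached a TPM of 1 in 4 or more libraries entered a linear model of genotype and batch (limma 3.58.1, R 4.3.3, eBayes with trend), a step tested on simulated data. Two-sided p-values were corrected over all these genes by the Benjamini-Hochberg method, and a gene was called at an adjusted p under 0.05. An exact Kruskal-Wallis test after removeBatchEffect stood in for the test of the study, whose ComBat step was not run here. Correlations with marker lists used 100000 shuffles within batch.

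The BMP genes and all lists were chosen with earlier results of these data known. Named are all 10 BMP genes, pathway genes called against WT, the most abundant WT gene of each pathway list, and the 3 genes most like each BMP gene, of which 1 is not reported here. Positions are from GENCODE vM21. Alternatives changed the pseudocount (0.1), the filter (above 0), the scaling (median ratio), the batch term, the batch of Het 3 (deposited with the later libraries) or the libraries used, or added a replicate block and, after the data were seen, marker covariates.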

Additional observations from a re-analysis of the deposited data

Results flagged for a closer look

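In 4 of 54 groups of libraries tested, for the 10 BMP genes and 8 pathway genes in each genotype, 1 library lay far from the others by the Dixon test for an outlying value, which chance alone does in about 5% of groups. Bmpr2 was at 25.3 TPM in Het 4, below the 31.7 to 33.6 TPM of the other Het libraries. Msx2 was at 1.70 TPM in Het 1, below the 3.28 to 3.86 TPM of the others. Tob1 (141 TPM) and Id2 (363 TPM) were both highest in WT 5, where the other WT libraries had at most 78.9 and 245 TPM. WT 5 also had the lowest meningeal marker sum (239 TPM). The cause was not tested for any of them.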

How the results depend on the processing

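Bmp5 was lower in Hom than in WT under all 23 alternatives (log2 -1.98 to -1.51) and called in 21. With either batch alone 0 BMP genes were called lower. In the exact Kruskal-Wallis test 2 passed with a lower level in Hom than in WT, Bmp5 and Bmpr1b, but the mean of Bmpr1b was lowest in Het. With the marker covariates 1 BMP gene, Bmp5, was called lower in Hom than in Het. Leaving out 1 library kept the 1 BMP gene called lower in Hom each time, with Bmp5 at -1.73 to -1.52. The depth of each library is unknown, so what depth limits cannot be stated, and Bmp2, near 1 TPM, rests on the fewest reads per length. After genotype and batch were removed, 3 of 13 same-numbered pairs of libraries correlated above 0.1 (-0.235 to 0.264). Differently numbered pairs were not compared, so this does not decide whether the replicate numbers pair the libraries. With the replicate block 1 BMP gene and 1 pathway gene stayed called in Hom and 0 pathway genes were called lower, Msx2 being at -0.69 (adjusted p = 0.175).

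The count of pathway genes called lower in Hom, 1 (Msx2), was 0 with the pseudocount of 0.1, with all genes above 0, without the batch term, with either batch alone, with the replicate block and with the covariates, and 0 to 2 when 1 library was left out. The 2 without Hom 4 were Msx2 and Id4. In the Kruskal-Wallis test it was 1 as well, but the gene was Chrd (exact p = 0.00322) and not Msx2 (exact p = 0.0105, threshold 0.01). The count called higher in Hom, 1 (Chrdl2), was 2 in batch 1 alone (with Id2), 0 in batch 2 alone, 2 in the Kruskal-Wallis test (with Grem1) and 1 to 2 when 1 library was left out (2 without WT 5, with Id2). The count called higher in Het, 0, was 1 (Chrdl2) with the pseudocount of 0.1 and with the covariates, and 0 to 1 when 1 library was left out (1 without Het 2).

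Of 713 recomputed log2 changes, 45 changed sign, none of them called in either setting. In batch 1 alone, Hom changes were -0.12 for Bmp4 and 0.082 for Tob1, and Het changes were -0.21 for Bmp4, -0.045 for Bmp6 and -0.11 for Bmp7. In batch 2 alone, Hom changes were -0.16 for Bmpr2, 0.14 for Id3, -0.012 for Id2, -0.29 for Rgmb and -0.042 for Smad4, and Het changes were -0.24 for Bmpr2 and 0.027 for Id3. With the covariates, Hom changes were -0.022 for Bmp2, 0.026 for Bmpr1a, -0.050 for Bmpr2, 0.0030 for Gdf10 and -0.024 for Rgmb, and the Het change of Bmpr2 was -0.11. Gdf10 is itself among the genes averaged in the astroglial covariate, so part of its own change was taken out by that model. With the replicate block, Hom changes were 0.0063 for Bmpr1a, 0.050 for Id1 and 0.0071 for Tob1. With median-ratio scaling the Het change of Bmpr2 was -0.012. When 1 library was left out, Hom changes ran from -0.056 to 0.25 for Bmp2, -0.054 to 0.021 for Bmpr1a, -0.30 to 0.017 for Id1 and -0.025 to 0.14 for Rgmb, and Het changes from -0.071 to 0.17 for Bmp6, -0.042 to 0.24 for Bmp7, -0.066 to 0.086 for Bmpr2 and -0.19 to 0.066 for Id1. The cause was not tested.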

Other observations

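Of the 41 pathway genes, 5 were higher and 5 lower in Hom at an unadjusted p under 0.05, beside 8.51% and 6.42% of all tested genes, and 8 of these did not pass the adjustment. They are named here after their values were seen. The lower ones were Tll1, a metalloprotease of the tolloid group that cleaves chordin (log2 difference -0.52, limma adjusted p = 0.197), Chrd, which encodes chordin (-0.16, adjusted p = 0.256), Gdf10 (-0.87, adjusted p = 0.243) and Id4 (-0.71, adjusted p = 0.133). The higher ones were Grem1, the antagonist gremlin (0.29, adjusted p = 0.319), the inhibitory Smad6 (0.47, adjusted p = 0.265), Id2 (0.33, adjusted p = 0.270) and Eng, an endothelial co-receptor (1.56, adjusted p = 0.265). Smad6 was at 0.37 to 0.67 TPM in WT, 0.36 to 1.61 TPM in Het and 0.98 to 1.22 TPM in Hom. It passed the filter through Het and Hom libraries alone, so its place among the higher genes carries no weight. Eng is expressed by endothelial cells, whose 12 markers had a median difference of 1.497, and their part in it was not tested. Chrd was at 61.2 to 67.6 TPM in WT, 65.1 to 73.2 TPM in Het and 54.7 to 64.6 TPM in Hom, and it passed the exact Kruskal-Wallis test over the 3 genotypes (exact p = 0.00322).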
